A study of Mus musculus with 2 samples.

Results

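Chemokine ligands are the small secreted proteins that cells release to attract leukocytes and other motile cells, and 9 of them were followed here through the reversion of primed mouse stem cells to the naive state: Ccl2, Ccl7, Ccl6, Ccl3, Ccl4, Cxcl1, Cxcl5, Cxcl10 and Cxcl12. They were taken by symbol as rows of a single-cell RNA-seq table of read counts, and all 9 had a row among its 33963 gene rows. The table held 17720 cells with 3179 to 111822 reads each, without molecular identifiers. Each of 5 populations carried its own antibody-borne tag, and all were pooled in 1 cDNA library.

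The naive population was Rex1-GFP mESCs in 2iL (2 kinase inhibitors with LIF), the primed population was Oct4GIP mEpiSCs in FGF2 and Activin A, and the AICAR + LIF cells were collected from the Oct4GIP line at day 8 (d8), at day 16 (d16), and at day 16 followed by expansion for 10 passages in 2iL (d16+10p). AICAR activates the kinase AMPK, and the labels give the strain of these cells as 129/Ola. The naive and primed cells are different lines, each population is 1 tagged sample, and the labels describe MEF feeders for the Oct4GIP cultures. The study's methods give fibronectin-coated plates for routine culture of Oct4GIP cells, with MEF feeders from the day before reversion. The tag of the d8 cells marked 9627 cells, that of d16 4315, that of primed 1826, that of d16+10p 1151 and that of naive 801, with medians from 10185 reads per cell at d16 to 21551 at d16+10p. No cell number occurred under more than 1 tag.

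The tags did not hold a single kind of cell each. The primed sample had 500 cells loaded, yet 1826 cells carried its tag. Of these, 422 lay in cluster 12, which had high Pou5f1 (the Oct4 gene), 408 in the unnamed cluster 2, 172 in the epithelial-like cluster 0, 238 and 71 in the fibroblast-like clusters 6 and 1, and 47 in the macrophage-like cluster 8. The naive sample also had 500 cells loaded, and 512 of its 801 tagged cells lay in the naive cluster, cluster 11. The study considered the Oct4-negative cells of its primed population to be MEF feeder cells. Tag assignment could not be checked here, since the tag reads were not used. Whether primed-tagged and naive-tagged cells outside clusters 12 and 11 are feeder cells or cells of other populations was not tested. Each primed level is therefore given for all primed-tagged cells and, where it differs much, for those of cluster 12. With 1 sample per population there is no replicate and no test, and all intervals are 95% intervals that cover counting error only, since PCR reads are not independent molecules.

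CC and CXC chemokines differ in the spacing of their first cysteines and act on G protein-coupled receptors. Ccl2 and Ccl7 draw monocytes through Ccr2. Ccl3, a close relative of Ccl4, acts on Ccr1, which Ccl6 is thought to use as well. Cxcl1 and Cxcl5 draw neutrophils through Cxcr2, Cxcl10 is an interferon-inducible ligand of Cxcr3, and Cxcl12 is a largely constitutive stromal ligand of Cxcr4 that retains stem and progenitor cells. Fibroblasts, macrophages and epithelia are all known to make members of the family.

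The members fall into a few genomic neighbourhoods of the mouse build GRCm38. On chromosome 11, Ccl2 (chr11:82035571-82037453, plus strand) and Ccl7 (chr11:82045712-82047525, plus strand) lie 8258 bases apart. Further along the same chromosome lie Ccl6 (chr11:83587882-83593087, minus strand), Ccl3 (chr11:83647844-83649355, minus strand) and Ccl4 (chr11:83662584-83664683, plus strand), the last pair 13228 bases apart. Chromosome 5 carries Cxcl5 (chr5:90759360-90761624, plus strand), Cxcl1 (chr5:90891241-90893115, plus strand) and Cxcl10 (chr5:92346638-92348889, minus strand). Cxcl12 stands alone on chromosome 6 (chr6:117168535-117181367, plus strand). Reads can be placed on these genes with little ambiguity: at most 1.02% of the 31-base words of a member's transcripts, in Ccl6, occurred in a transcript of another gene.

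The 250 bases before the gene start, as RefSeq annotates it on GRCm38.p6, are shown for 1 member from each of the 3 source classes described below: Cxcl1, whose reads were mostly in fibroblast-like cells, Cxcl10, whose d8 reads were mostly in epithelial-like cells, and Ccl6, nearly all in macrophage-like cells. They are written 5′ to 3′ on the strand of the gene, with matches to the kappaB consensus (the NF-kappaB binding motif) and to the AP-1 motif TGANTCA in capitals. The windows are chr5:90890995-90891244 (plus strand) for Cxcl1, chr5:92348890-92349139 (minus strand) for Cxcl10 and chr11:83593088-83593337 (minus strand) for Ccl6.
Cxcl1: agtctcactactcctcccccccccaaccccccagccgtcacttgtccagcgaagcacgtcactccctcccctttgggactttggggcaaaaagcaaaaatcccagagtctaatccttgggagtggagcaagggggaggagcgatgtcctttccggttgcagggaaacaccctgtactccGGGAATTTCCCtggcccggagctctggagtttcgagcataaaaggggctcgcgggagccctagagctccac
Cxcl10: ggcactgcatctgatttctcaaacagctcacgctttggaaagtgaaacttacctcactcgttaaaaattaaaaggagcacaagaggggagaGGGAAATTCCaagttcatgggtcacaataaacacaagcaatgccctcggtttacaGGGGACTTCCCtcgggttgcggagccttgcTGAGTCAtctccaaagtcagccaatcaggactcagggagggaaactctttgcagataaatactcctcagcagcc
Ccl6: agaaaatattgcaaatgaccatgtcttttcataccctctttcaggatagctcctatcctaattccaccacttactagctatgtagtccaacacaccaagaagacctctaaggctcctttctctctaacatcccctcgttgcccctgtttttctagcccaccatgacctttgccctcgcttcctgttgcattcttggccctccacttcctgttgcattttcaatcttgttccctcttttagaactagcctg

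A promoter window was held for 5 of the 9 members (these 3, Ccl3 and Cxcl12), and both strands were searched. The kappaB consensus occurred in 2 of the 5, Cxcl1 and Cxcl10, against 7.25% of the 32851 windows of this length. In Cxcl1 the overlapping matches ran from base -71 to base -61, and in Cxcl10 they lay at -159 to -150 and at -104 to -94. TGANTCA occurred in Cxcl10 alone of the 5, at -74 to -68, against 6.75% of windows. The STAT motif TTCNNNGAA (7.02% of windows) and TATAAA (12.4% of windows) occurred in none of them. GC content ran from 45.2% in Ccl6 to 64.4% in Cxcl12. A match of letters is a description of the window and not a measured binding site.

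Levels were first summed over all cells of a tag, normalised to the total of the tag (CPM, counts per 1000000 reads). Such a sum does not separate more cells of a type from more RNA per cell, a split that the clusters below address. At d8, 8 of the 9 members stood at their highest level, as did 24.9% of all genes compared. Cxcl12 was the exception, with its highest level at d16.

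The monocyte attractants Ccl2 and Ccl7 moved in parallel across the tags. Ccl2 stood at 284 CPM in d8, and at 55.7 CPM with the naive tag, 88.7 with the primed, 70.2 with the d16 and 57.1 with the d16+10p tag. Ccl7 stood at 171 CPM in d8 and, in the same order of the remaining tags, at 32.9, 43.1, 41.7 and 31.5 CPM. The d8 level of both was far outside the counting interval of every other tag, and their naive and d16+10p levels had overlapping intervals. In d8 relative to primed, Ccl2 was 3.20 times as high (3.08 to 3.34) and Ccl7 3.98 times (3.75 to 4.22).

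The macrophage-associated CC ligands also had d8 on top, while the order of the remaining tags differed among the members. Ccl6 stood at 150 CPM in d8, and at 25.9 CPM with the naive tag, 30.9 with the primed, 37.3 with the d16 and 23.3 with the d16+10p tag. Ccl3 stood at 7.11 CPM in d8 and, in that order of tags, at 1.80, 2.22, 1.77 and 1.14 CPM. Ccl4 had only 6 to 396 reads per tag and stood at 2.20 CPM in d8 and at 0.464, 0.861, 0.591 and 0.229 CPM elsewhere. The d8 to primed ratio was 4.84 for Ccl6 (4.53 to 5.19), 3.20 for Ccl3 (2.48 to 4.19) and 2.56 for Ccl4 (1.69 to 4.04).

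Among the CXC ligands, the neutrophil attractant Cxcl1 stood at 41.0 CPM in d8, and at 6.84 CPM with the naive tag, 12.2 with the primed, 13.2 with the d16 and 9.30 with the d16+10p tag. Cxcl5, its relative on chromosome 5, was read 10 to 503 times per tag, at 2.80 CPM in d8 and at 0.580, 1.01, 1.72 and 0.991 CPM in that order of tags. The interferon-inducible Cxcl10 stood at 22.3 CPM in d8 and at 8.35, 12.1, 11.3 and 6.82 CPM elsewhere. Its d8 to primed ratio of 1.84 (1.65 to 2.06) was the lowest among the 8 members highest at d8. Cxcl1 had 3.36 (3.01 to 3.76) and Cxcl5 had 2.78 (1.90 to 4.23), and the intervals of Cxcl5 and Ccl4 overlap that of Cxcl10.

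Cxcl12, the stromal ligand, had another profile. It stood at 88.9 CPM in d16, at 59.3 in primed and 57.0 in d8, and at 27.0 and 25.8 in naive and d16+10p. Its primed and d8 levels could not be told apart by counting error (ratio 0.962, 0.913 to 1.01), and d16 exceeded d8 by 1.56 times (1.51 to 1.61). The plot of levels by tag shows all 9 profiles.

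**Figure D1:**
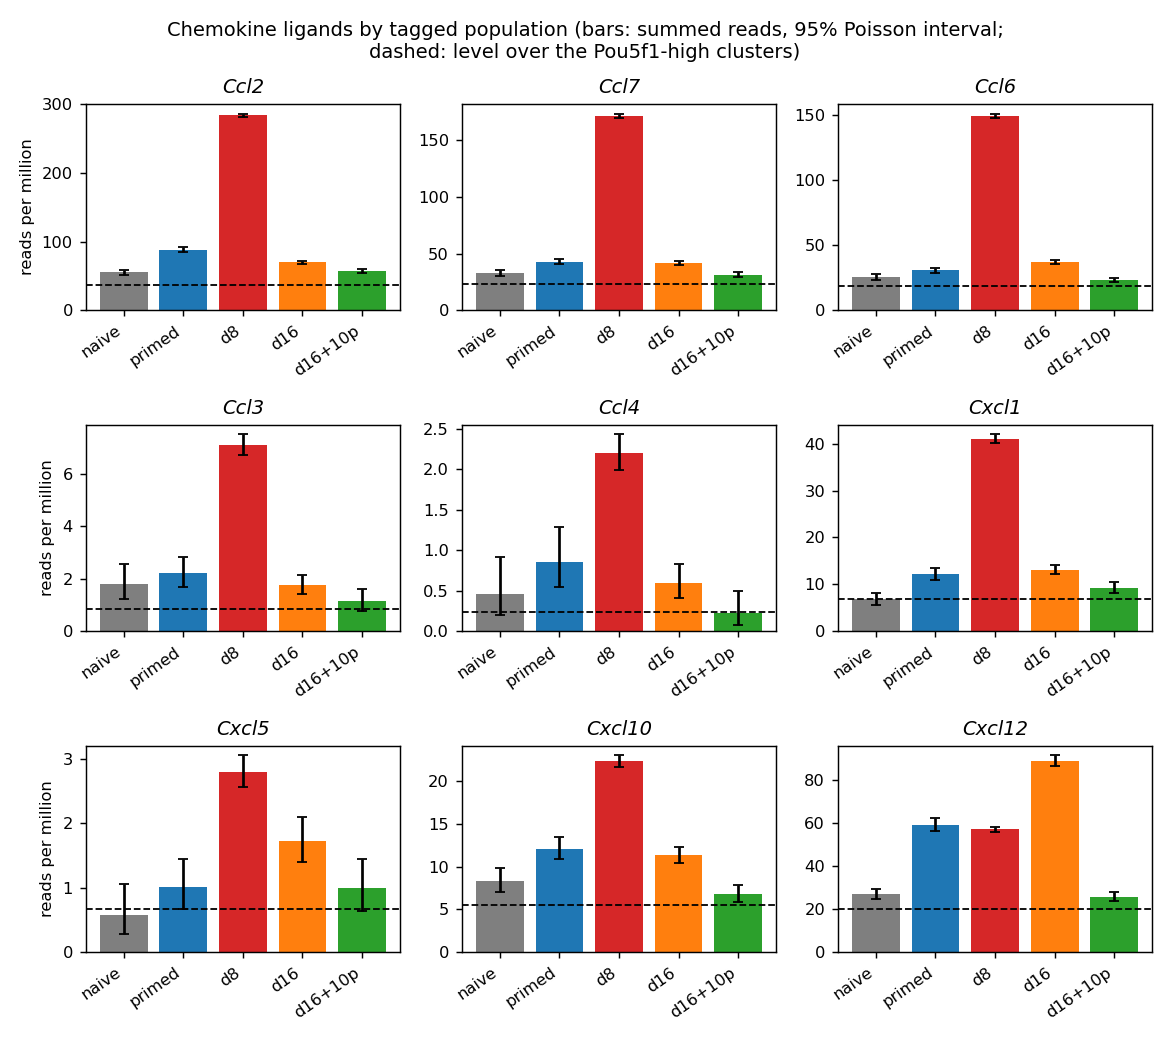
Summed level of each of the 9 ligands in CPM (linear axis) under each of the 5 tags, with 95% counting intervals as error bars. The dashed line is the level over the clusters with high Pou5f1. Ccl2, Ccl7, Ccl6, Ccl3, Ccl4, Cxcl1, Cxcl5 and Cxcl10 peak at d8, and Cxcl12 is highest at d16 with 88.9 CPM.

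Only Ccl6 of the 9 passed a 4-fold difference on the log2(CPM + 1) scale between d8 and primed, with log2 2.24, a size reached by 0.0805% of the 19876 genes compared. Ccl7 was just under it at log2 1.97. Against the 422 primed-tagged cells of cluster 12, the d8 ratios were larger: 8.14 for Ccl2 (7.32 to 9.07), 7.45 for Ccl7, 7.37 for Ccl6, 6.30 for Cxcl1, 4.54 for Cxcl10 and 2.44 for Cxcl12 (2.14 to 2.78). Those of Ccl3 (7.10, 3.85 to 14.9), Cxcl5 (13.97, 3.85 to 116) and Ccl4 (22.0, 3.93 to 871) rested on very few primed reads. For Cxcl12 that choice of primed cells turned a near-equal pair into a higher d8 level.

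From d8 to d16, the comparison that shares the d8 cells, Ccl2 was 4.05 times lower (3.92 to 4.18), Ccl7 4.12 times, Ccl6 4.02 times, Ccl3 4.01 times and Cxcl1 3.11 times. Ccl2 and Ccl7 passed 4-fold on the log2(CPM + 1) scale, as did 0.121% of genes, and Ccl6 was just outside at log2 -1.98. From d8 to d16+10p, also with the shared d8 cells, 4 members were at least 4-fold lower, against 0.824% of genes. These were Ccl2 at 4.98 times, Ccl7 at 5.44, Ccl6 at 6.41 and Cxcl1 at 4.41. On the plain ratio, Ccl3 (6.22 times, 4.33 to 9.25) and Ccl4 (9.62 times, 4.38 to 26.4) were also far lower, from 30 and 6 reads at d16+10p.

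For most members the intervals of the ratio of d16+10p to naive included 1. This ratio was 1.03 for Ccl2 (0.945 to 1.11), 0.957 for Ccl7 (0.859 to 1.07), 0.902 for Ccl6 (0.797 to 1.02) and 0.957 for Cxcl12 (0.849 to 1.08). Cxcl1 was the member whose interval left 1 out, at 1.36 (1.09 to 1.71). The members with few reads had wide intervals, at 0.636 for Ccl3 (0.372 to 1.09), 0.493 for Ccl4 (0.141 to 1.62) and 1.71 for Cxcl5 (0.7975 to 3.97), and Cxcl10 was at 0.817 (0.653 to 1.02). The lines differ between the populations, so line and treatment cannot be told apart in this pair.

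The share of cells with a Ccl2 read differed less between tags than its level. With every cell thinned to 5000 reads, a Ccl2 read was found in 25.1% of the d8 cells, and in 16.1% of the naive, 17.4% of the primed, 19.3% of the d16 and 15.6% of the d16+10p cells. Without thinning the shares in this order were 45.2%, 45.4%, 35.7%, 33.2% and 42.6%, which put deeply read naive cells beside d8. In the Pou5f1-high clusters 5, 7, 11 and 12 (3279 cells, median 19004 reads against 15474 for d8 cells), 14.9% of thinned cells and 41.1% of unthinned cells had a Ccl2 read. That level was taken as the background of the pooled library: Ccl2 lay between 34.7 and 38.5 CPM in these 4 clusters. The intervals of the naive and d16+10p shares included the thinned background share, while the primed share was slightly above it. However, cluster 11 held 512 of the 801 naive-tagged cells, and cluster 7 held 886 of the 1151 d16+10p-tagged cells. These tags were thus compared largely with their own cells, and nothing is concluded from that overlap.

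The other members had backgrounds of the same kind. In the Pou5f1-high cells the thinned share was 9.96% for Ccl7, 8.21% for Ccl6, 2.87% for Cxcl1, 2.19% for Cxcl10 and 8.21% for Cxcl12. At d8 these shares were 18.7%, 12.2%, 7.63%, 6.15% and 16.0%. The naive shares were 11.3%, 7.91%, 3.41%, 3.27% and 11.2%. Ccl4 was found in 0 of 733 thinned naive cells, which allows a share of up to 0.409% at a limit of 3 counts (0.502% by the exact interval), and in 0.620% of d8 cells. Without thinning, 6 naive cells (0.749%) had a Ccl4 read. The d8 and primed shares were 0.620% and 0.193% for Ccl4 and 0.710% and 0.257% for Cxcl5, with overlapping intervals for both.

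Clusters were then made without any chemokine ligand or receptor among the genes used, and 3 kinds of cell stood out for the ligands. These clusters were still made from the same cells, so their levels are a description. Cluster 1 (2345 cells, 2171 of d8) was fibroblast-like and led by Lox, the lysyl oxidase that crosslinks collagen. Cluster 8 (935 cells, 819 of d8) was macrophage-like, with all 10 macrophage markers of the list highest there. Cluster 0 (2408 cells, 2125 of d8) was epithelial-like, cluster 4 (1695 cells) smooth muscle-like, and cluster 6 (1095 cells, 737 of d16) another fibroblast-like cluster led by Col3a1. Of the 10 fibroblast markers of the list, only 3 were highest in cluster 1, and 7 were highest in cluster 6. Col1a1, for example, stood at 3030 CPM in cluster 6 and 471 CPM in cluster 1.

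**Figure D2:**
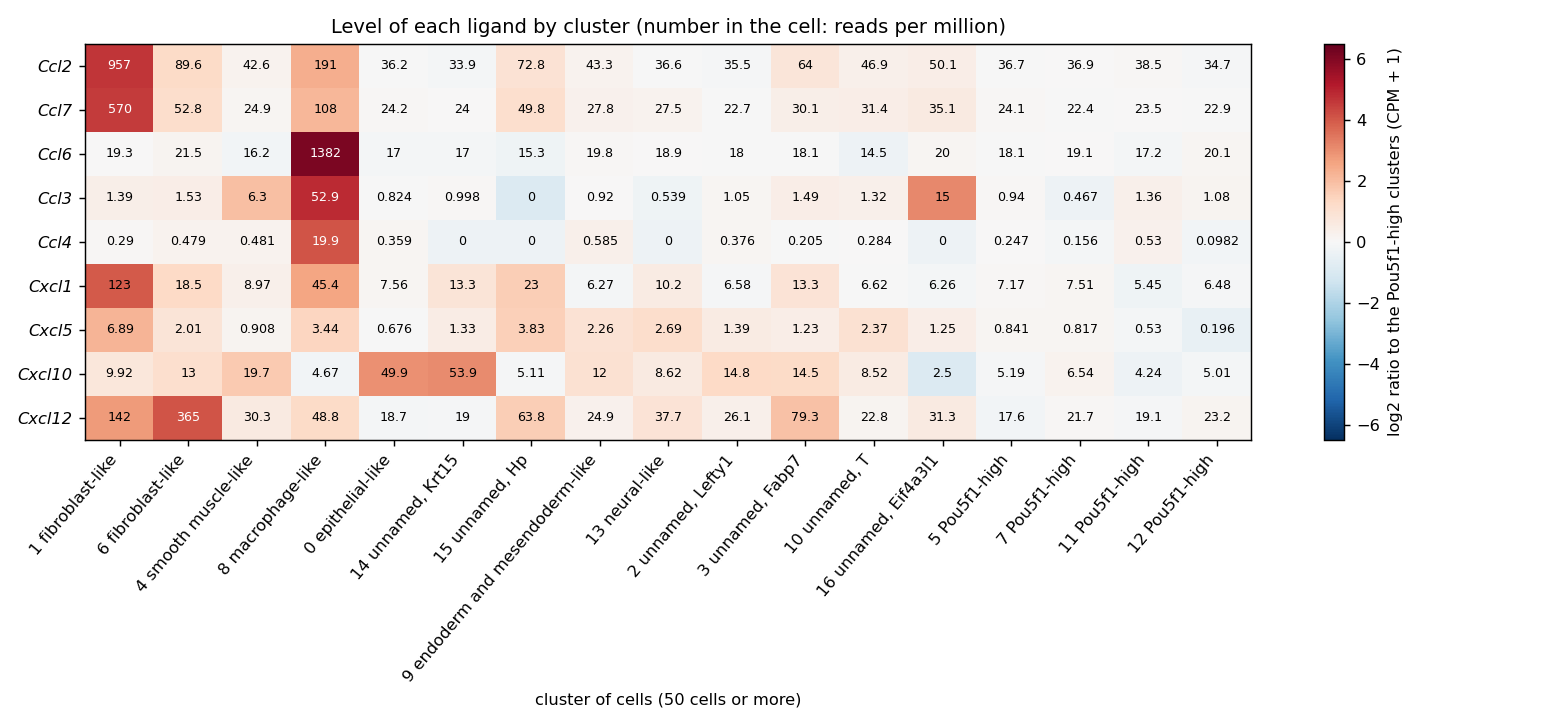
Level of each of the 9 ligands (rows) in each cluster of 50 or more cells (columns). The number in a square is the level in CPM, and its color is the log2 ratio to the Pou5f1-high clusters on CPM + 1. Ccl2, Ccl7, Cxcl1 and Cxcl5 are highest in cluster 1, Ccl6, Ccl3 and Ccl4 in cluster 8, Cxcl10 in clusters 14 and 0, and Cxcl12 in cluster 6.

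Fibroblast-like cluster 1 was the main place of Ccl2, Ccl7, Cxcl1 and Cxcl5. Ccl2 reached 957 CPM there, 191 in cluster 8 and 89.6 in cluster 6, against 36.8 in the Pou5f1-high cells. Ccl7 followed with 570, 108 and 52.8 CPM, against 23.2. Relative to the Pou5f1-high level these were 26.0 times (24.98 to 27.06) and 24.6 times (23.4 to 25.9) in cluster 1. Epithelial-like cluster 0 was at the background for both, with ratios of 0.983 (0.924 to 1.05) and 1.05 (0.969 to 1.13).

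Cxcl1 stood at 123 CPM in cluster 1 and 45.4 CPM in cluster 8, against a background of 6.87 CPM. Cxcl5 reached 6.89 CPM in cluster 1 against 0.678, but a single cell held 23.2% of its reads in that cluster. Across the 17 clusters of 50 or more cells, the log levels of Ccl2 and Ccl7 had a Pearson's r of 0.99, Ccl2 and Cxcl1 of 0.94, and Ccl2 and Cxcl5 of 0.77, all from 1 library with one shared background.

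The macrophage-like cluster held the other CC ligands. Ccl6 reached 1382 CPM (1365 to 1399) in cluster 8, and its next highest cluster had 21.5 CPM, near the background of 18.6. Ccl3 stood at 52.9 CPM in cluster 8 against 0.866 and Ccl4 at 19.9 CPM against 0.245. Relative to background, the 3 were 74.3 times (70.3 to 78.6), 61.1 times (47.1 to 80.7) and 81.0 times (49.9 to 141) as high. Ccl3 also had 15.03 CPM in the unnamed cluster 16, from 12 reads in 56 cells, and 6.30 CPM in smooth muscle-like cluster 4, where 1 cell gave 64.4% of the reads.

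Cxcl10 was the epithelial-like ligand of the set. It stood at 49.9 CPM (48.0 to 52.0) in cluster 0 and 53.9 CPM (45.9 to 62.9) in the unnamed Krt15 cluster 14, 2 levels whose intervals overlap. Smooth muscle-like cluster 4 had 19.7 CPM. Fibroblast-like cluster 1 had 9.92 CPM, where 1 cell gave 31.4% of the reads. Macrophage-like cluster 8 had 4.67 CPM, near the background of 5.48. Unlike Ccl6, Cxcl10 was thus spread over several clusters, at up to 9.83 times the background.

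Cxcl12 was highest in the fibroblast-like cluster 6 with 365 CPM (353 to 377), a cluster mostly of d16 cells. It stood at 142 CPM in cluster 1, 79.3 in the unnamed Fabp7 cluster 3 and 48.8 in cluster 8, against a background of 20.2. The fibroblast-like clusters therefore differed in which ligands they held: cluster 1 had 957 CPM of Ccl2 against 89.6 in cluster 6, and cluster 6 had 365 CPM of Cxcl12 against 142 in cluster 1.

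Of the d8 reads, all 9 members had over 50% in 1 cluster, as did 6.63% of genes. Cluster 1 made up 22.6% of d8 cells and held 84.6% of Ccl2, 84.3% of Ccl7, 77.4% of Cxcl1, 63.4% of Cxcl5 and 62.6% of Cxcl12 reads. Cluster 8, with 8.51% of d8 cells, held 88.9% of Ccl6, 70.5% of Ccl3 and 83.8% of Ccl4 reads. Cluster 0, with 22.1% of d8 cells, held 52.6% of Cxcl10 reads, a share of 49.8% when each cell counted equally and 69.8% when the clustering was coarser.

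**Figure D3:**
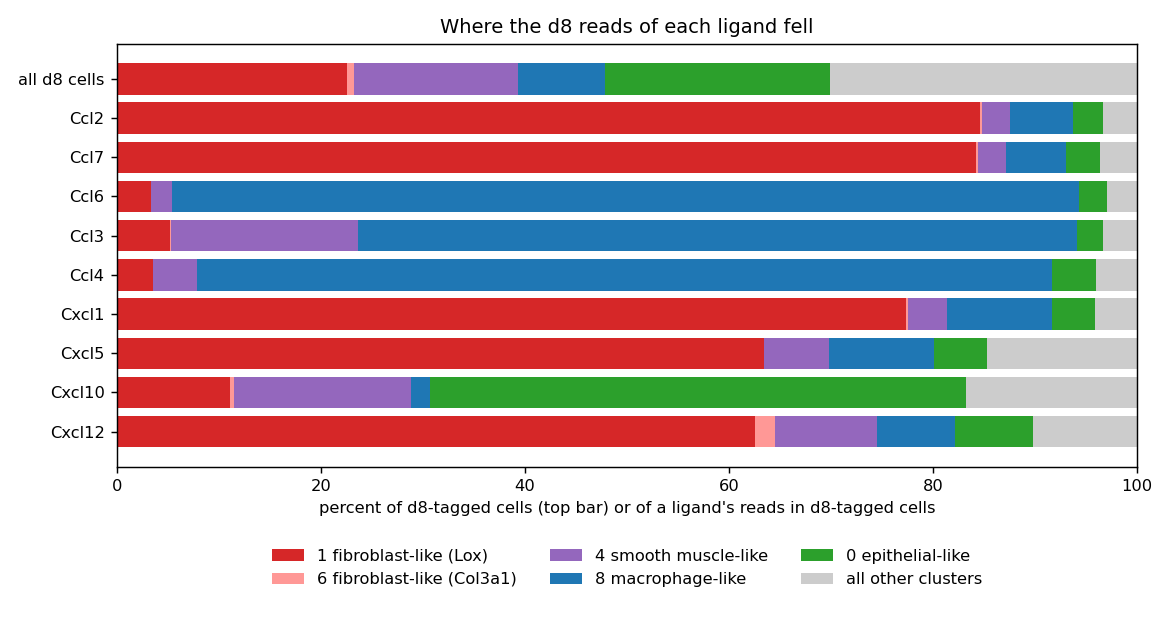
Share of the d8 reads of each ligand in 5 named clusters and in all other clusters, in percent of its d8 reads, with the share of d8 cells as the top bar. Cluster 1 takes 84.6% of Ccl2 reads from 22.6% of cells, and cluster 8 takes 88.9% of Ccl6 reads from 8.51% of cells.

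Clusters 1 and 8 held far fewer cells of the other tags. In cluster 1, Ccl2 stood at 957 CPM in d8, beside 1017 in 23 naive-tagged cells, 1289 in 71 primed-tagged cells and 617 in 61 d16 cells. Those few cells held 30.5% of all naive Ccl2 reads, 47.1% of the primed and 22.0% of the d16 reads, and 19 cells held 36.1% of the d16+10p reads. In cluster 8, Ccl6 stood at 283 CPM in 23 naive-tagged cells, 706 in 47 primed-tagged cells, 1477 in d8 and 1154 in 37 d16 cells. These cells held 34.3% of the naive, 44.6% of the primed and 52.2% of the d16 Ccl6 reads, against 88.9% at d8.

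For Cxcl12, cluster 6 was 17.1% of d16 cells and held 50.01% of d16 reads, and the unnamed cluster 3 was 38.4% of d16 cells and held 29.96%. In primed, cluster 6 was 13.03% of the cells and held 54.0% of Cxcl12 reads. Cxcl10 in cluster 0 stood at 107 CPM in 26 naive-tagged cells, 45.3 in primed, 50.2 in d8 and 36.4 in 57 d16 cells.

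Because MEF feeders were used, the Y-linked genes were read beside the ligands. Of 4 listed, 3 reached 20 CPM in a cluster and 1 of these, Ddx3y, was highest in cluster 1. Ddx3y, a Y-linked helicase gene, stood at 96.7 CPM in cluster 1, 71.1 in naive cluster 11 and 37.9 in cluster 8, but at 4.65 in cluster 0, 6.80 in cluster 6 and 3.93 in primed cluster 12. The clusters highest in Ccl2 and in Ccl6 thus had Ddx3y above the level of the primed line's own cluster, and clusters 0 and 6 were closer to it. Eif2s3y, another of the listed genes, was highest in naive cluster 11 with 37.0 CPM, beside 21.4 in cluster 1. The study lists both the Oct4GIP and the Rex1-GFP line as XX, and the naive levels of these genes differ from that listing. Why they do, and whether feeder cells are among the sources of the ligands, was not tested.

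Within a cluster, d8 and d16 cells could be compared for 37 pairs of ligand and cluster, and 5 members were at least 2-fold apart in at least 1 cluster, as were 26.8% of genes. In cluster 1, Ccl2 was 1.55 times as high at d8 as at d16 (1.45 to 1.66), Ccl7 1.27 times (1.17 to 1.37), Cxcl12 1.22 times (1.04 to 1.43) and Cxcl1 2.27 times (1.81 to 2.87; 126 against 55.7 CPM). Other ratios were under 1. In cluster 1, Cxcl10 was at 0.570 (0.378 to 0.898). In cluster 4, Cxcl1 was at 0.437 (0.290 to 0.687, from 25 d16 reads), Ccl2 at 0.613 (0.495 to 0.767) and Cxcl12 at 0.626 (0.485 to 0.821). Ccl2 in cluster 0 was at 0.746 (0.582 to 0.972), and Ccl6 in cluster 6 at 0.522 (0.246 to 0.985). The other differences of at least 2-fold, of Ccl7 and Cxcl10 in cluster 2, Ccl6 in clusters 0 and 9, Ccl3 in cluster 4 and Cxcl1 in cluster 2, rested on at most 12 d16 reads each.

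In cluster 1 the ratios of Ccl2, Ccl7 and Cxcl1 were smaller than those over whole tags, which were 4.05 for Ccl2, 4.12 for Ccl7 and 3.11 for Cxcl1. The 61 d16 cells of cluster 1 were few beside its 2171 d8 cells. For Cxcl12, the d16 cells of cluster 6 stood at 351 CPM and its 63 d8 cells at 244 CPM, a d8 to d16 ratio of 0.695 (0.600 to 0.802).

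Single d8 cells were next sorted by a read of Lox, Krt18 (an epithelial keratin) or Lyz2 (the macrophage lysozyme), after thinning. Of 8872 d8 cells, 3433 had a Lox read (38.7%), 6521 a Krt18 read (73.5%) and 5057 a Lyz2 read (57.0%). In Pou5f1-high cells the shares were 23.0%, 49.0% and 55.4%, so that a single read of these abundant genes is close to background, above all for Lyz2. At 3 or more reads the d8 shares were 17.2%, 43.2% and 16.8% against 0.843%, 7.12% and 9.24%.

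The ligands divided among the 3 markers as most of their d8 reads did among clusters 1, 0 and 8. Lox, Krt18 and Lyz2 are the first leading genes of these clusters. In the same d8 cells this split therefore largely repeats the clusters and is not separate support. Cxcl12 went with Lox, although its d8 level was higher in cluster 6 (244 CPM) than in cluster 1 (142 CPM). The ratio of marker-positive to marker-negative cells was highest with Lox for 5 members (Ccl2, Ccl7, Cxcl1, Cxcl5 and Cxcl12; 26.4% of genes), with Krt18 for Cxcl10 alone (58.4% of genes), and with Lyz2 for 3 members (Ccl6, Ccl3 and Ccl4; 15.2% of genes). For Krt18 the count of members lies far under the share of all genes, and for the other markers above it.

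Lox-positive cells had 492 CPM of Ccl2 and Lox-negative cells 62.8 CPM, a ratio of 7.84 (7.44 to 8.26). The ratio was 7.39 for Ccl7, 4.16 for Cxcl1, 3.73 for Cxcl5 and 2.83 for Cxcl12, and 0.853 for Ccl6. A Ccl2 read was found in 40.1% of Lox-positive cells and 15.7% of Lox-negative cells, the latter close to the 14.9% of the Pou5f1-high cells.

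Lyz2-positive cells had 13.2 times the Ccl6 of Lyz2-negative cells (11.8 to 14.8), 8.55 times the Ccl3 and 16.0 times the Ccl4 (6.04 to 60.2, with 4 reads in the negative cells). Ccl2 by Lyz2 had a ratio of 1.00 (0.962 to 1.04). A Ccl6 read was found in 15.7% of Lyz2-positive and 7.52% of Lyz2-negative cells. Krt18-positive cells had 2.99 times the Cxcl10 of Krt18-negative cells (2.45 to 3.69), with a read in 7.30% against 2.98% of cells, and 0.356 times the Ccl2.

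Ccl2 and Ccl7 were higher with each step in Lox reads. In d8 cells with 0, 1 to 2, 3 to 9 and 10 or more Lox reads, Ccl2 stood at 62.8, 205, 737 and 1098 CPM. Ccl7 stood at 38.9, 123, 408 and 678 CPM in these cells and Cxcl12 at 31.2, 55.2, 125 and 138 CPM. The intervals of successive steps did not overlap, except for the last step of Cxcl12 (116 to 135 and 124 to 153).

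Ccl6 had a step instead. With 0, 1 to 2, 3 to 9 and 10 or more Lyz2 reads it stood at 17.1, 15.4, 29.1 and 1344 CPM. Cells with up to 2 Lyz2 reads were near the background of 18.6 CPM. Those with 3 to 9 were somewhat above it (23.7 to 35.4), and those with 10 or more far above it. Cxcl10 by Krt18 reads stood at 9.10, 17.6, 29.7 and 40.4 CPM, with no overlap between successive intervals. Within epithelial-like cluster 0, however, Pearson's r of the thinned counts of Cxcl10 and Krt18 was -0.003. The rise over all d8 cells thus did not recur among the cells of that cluster.

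**Figure D4:**
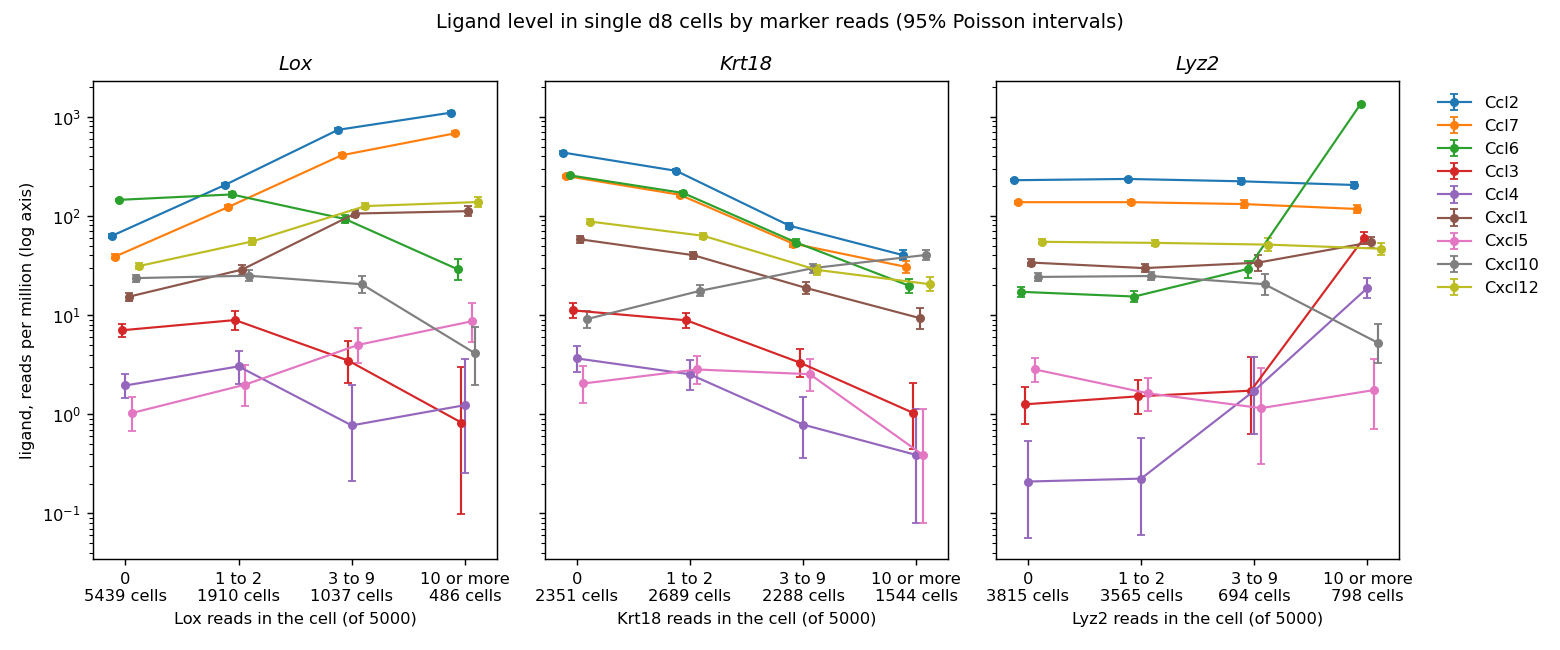
Level of the ligands in d8 cells, in CPM (log axis), by the number of reads of Lox, Krt18 or Lyz2 in the cell after thinning, with 95% counting intervals. Ccl2 goes with Lox from 62.8 to 1098 CPM, Ccl6 reaches 1344 CPM at 10 or more Lyz2 reads, and Cxcl10 goes with Krt18 from 9.10 to 40.4 CPM.

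Cells with 3 or more reads of a single marker kept Ccl6 apart, and Ccl2 and Cxcl10 only in part. The 1157 cells with Lox alone had 909 CPM of Ccl2 and 13.8 of Ccl6. The 865 cells with Lyz2 alone had 1046 CPM of Ccl6 and 147 of Ccl2, the latter above its background of 36.8. The 3290 cells with Krt18 alone had 35.3 CPM of Cxcl10, 41.8 of Ccl2 and 16.8 of Ccl6. Cxcl10 also stood at 15.7 CPM with Lox alone and 6.24 with Lyz2 alone, against a background of 5.48.

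A further 220 cells had both Lox and Lyz2 at 3 or more reads, and these had both ligands, with 739 CPM of Ccl2 and 415 of Ccl6. No doublet caller was run, so whether these are single cells or cells caught together was not tested. The 2798 cells with none of the markers at that level still had 159 CPM of Ccl2, above the background of 36.8, and 16.9 CPM of Ccl6.

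Ccl2 in the macrophage-like cluster was set beside 6 of the 10 listed fibroblast genes, whose own shares were spread. Above background, cluster 8 held 16.7% of the Ccl2 of cluster 1 and 15.5% of the Ccl7, beside 13.8% of the Lox, 15.9% of the Postn (a matrix protein of fibroblasts) and 16.0% of the Thy1. The other fibroblast genes compared had higher shares, at 23.7% for Dcn, 23.1% for Col1a1 and 21.0% for Col1a2. For Cxcl12 the share was 23.5%. Cxcl1 at 33.1% and Cxcl5 at 44.5% lay above all 6 fibroblast genes compared, whose highest share was that of Dcn. These shares have no intervals. In cluster 8, Cxcl5 had 64 reads, and 9 cells held 37.6% of the Cxcl1 reads.

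Within cluster 8, the 517 cells with no Lox read had 115 CPM of Ccl2, the 205 with 1 to 2 had 262 and the 106 with 3 or more had 436. Cxcl1 stood at 27.1, 63.4 and 117 CPM in these cells, and Postn at 82.0, 305 and 770 CPM. Ccl6 stood at 1437, 1490 and 809 CPM, and Ddx3y at 34.0, 43.9 and 56.6 CPM. Ccl2 and Cxcl1 were above their backgrounds of 36.8 and 6.87 CPM in macrophage-like cells without a Lox read. The fibroblast gene Postn was above its own background there as well, at 82.0 CPM (71.3 to 93.8) against 59.4 CPM. What part reads of fibroblast-like cells have in these values was not tested.

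The ligands were unevenly spread over the cells of their own cluster. In cluster 1, 43.0% of cells had no Ccl2 read at 5000 reads per cell, and the 15.7% with 10 or more held 70.1% of the reads. For Ccl7, 53.4% of cells had none and 8.42% with 10 or more held 51.1% of the reads. Ccl6 in cluster 8 was similar, with 39.9% of cells at 0 and 20.9% holding 80.1% of the reads.

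Cxcl12 in cluster 6 was more even: 38.9% of cells had no read, and the 1.87% with 10 or more held 12.4% of its reads. Cxcl10 had no read in 87.0% of cluster 0 cells. The distribution of reads per cell in the plot shows these contrasts.

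**Figure D5:**
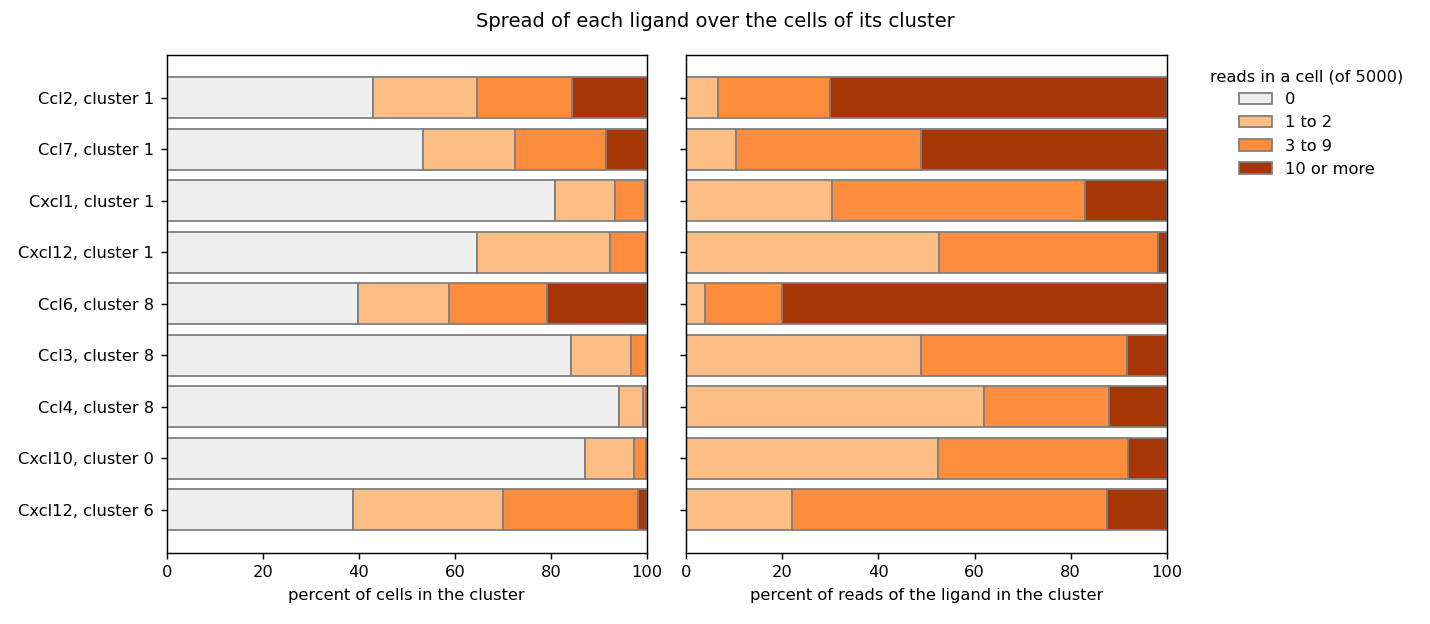
Cells of a cluster grouped by their reads of a ligand after thinning to 5000 reads, as percent of the cells (left) and percent of the ligand's reads (right). Ccl2 in cluster 1 and Ccl6 in cluster 8 run from 43.0% and 39.9% of cells at 0 to 15.7% and 20.9% with 10 or more, and Cxcl10 in cluster 0 has 87.0% of cells at 0.

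Ccl2 and Ccl7, neighbours in the genome, were often read in the same cells. In cluster 1, 76.0% (73.1 to 78.7) of the 941 cells with a Ccl7 read also had a Ccl2 read, against 40.4% (37.4 to 43.4) of the 1077 cells without. The pair of shares was 76.9% and 52.3% for Ccl2 by Cxcl1, on another chromosome, and 63.1% and 53.6% for Ccl2 by Cxcl12. Across these 2018 cells, Pearson's r of the thinned counts was 0.56 for Ccl2 with Ccl7, 0.27 with Cxcl1, 0.12 with Cxcl12 and 0.10 with Lox, all within 1 library.

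In cluster 8, 77.6% of cells with a read of Ccl9, another CC ligand of macrophages, had a Ccl6 read, against 45.4% of those without. Ccl3 was found in 20.8% of Ccl4-positive cells and 15.5% of the others, shares whose intervals overlap (10.47 to 34.99 and 13.04 to 18.25). In cluster 0, Cxcl10 was found in 31% of the 100 cells with a read of Cxcl11, which shares its receptor Cxcr3, against 12.2% of the rest.

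Further ligands of the family extended these sources. All 27 listed had a row, 12 reached 20 CPM in a cluster, and 0 of the 17 that could be compared were 4-fold higher at d8 than in primed (median log2 0.83). Ccl9 (422.5 CPM), Cxcl16 (146) and Cxcl2 (28.9) were highest in macrophage-like cluster 8. Ccl8 (120) and Cxcl14 (74.1) were highest in cluster 1, and the eosinophil attractant Ccl11 (91.1) in cluster 6.

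Cluster 15, an unnamed set of 75 cells led by the plasma protein genes Hp and Fgg, was highest for the B cell attractant Cxcl13 (378 CPM), Cxcl3 (72.8), Cxcl15 (39.6) and Ccl25 (26.8). Cx3cl1 was highest in cluster 14 (154 CPM) and Ccl27a in neural-like cluster 13 (50.1 CPM).

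Of 23 listed receptors, 21 had a row, 5 reached 20 CPM in a cluster, and 0 of 14 compared were 4-fold higher at d8 (median log2 0.09). The macrophage-like cluster was highest for Ccr1 (301 CPM), the receptor of Ccl3, for Cxcr4 (213 CPM), the receptor of Cxcl12, and for Ccrl2 (45.2 CPM). The scavenging Cxcl12 receptor Ackr3 stood at 168.5 CPM in cluster 15 and 89.3 in cluster 6, the cluster richest in Cxcl12. Cxcr2, the receptor of Cxcl1 and Cxcl5, had 106.5 CPM in the 56 cells of cluster 16 and 59.7 CPM in the Pou5f1-high cells.

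Other receptors of the members were scarce. Ccr2, the receptor of Ccl2 and Ccl7, reached at most 1.62 CPM in any cluster, and Cxcr3, that of Cxcl10, at most 0.666 CPM.

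Cytokines known to induce chemokines were also localized. Of 11 listed, 8 had a row and 3 reached 20 CPM: Csf1 (412.5 CPM), the macrophage growth factor, and Il6 (42.5 CPM) in cluster 1, and Lif (22.6 CPM) in cluster 14. Il1b and Tnf reached 7.90 and 3.12 CPM, both in cluster 8. Of 10 NF-kappaB genes, a list of 5 subunits and 5 known targets, 9 reached 20 CPM, among them Vcam1 (499 CPM) and Nfkbiz (174) in cluster 1, Tnfaip3 (60.7) in cluster 8, Nfkbia (232) in cluster 14 and Icam1 (139) in cluster 15. Of the 7 cytokines and 10 NF-kappaB genes compared, 0 were 4-fold higher at d8 than in primed, with medians of log2 0.66 and 0.53.

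The listed interferon-induced genes were not highest in epithelial-like cluster 0, where Cxcl10 had 49.9 CPM. Of 6 listed, 2 reached 20 CPM, Isg15 (27.1) and Irf1 (92.5), both in the unnamed cluster 10. Cluster 0 had 11.95 CPM of Isg15 and 4.41 of Ifit1. In its cells, r of Cxcl10 with Isg15 was 0.06. Cxcl11 stood at 14.6 CPM in cluster 4 and 13.1 in cluster 0.

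The marker lists of the cell types placed these values. Of the 10 macrophage markers, 2 were at least 4-fold higher at d8 than in primed, with a median log2 of 1.68, against 1 of 10 fibroblast markers (median 0.03), 0 of 8 epithelial markers (0.68), 0 of 7 smooth muscle markers (0.87) and 0 of 7 pluripotent markers (-0.98). Of the 4 neutrophil markers, 3 had a row and 1 reached 20 CPM, also in cluster 8. Of the endothelial, neural and endoderm and mesendoderm lists, 0 markers were 4-fold higher, with medians of log2 -0.33, -1.10 and -0.08.

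Genes with the most similar profile over the 17 clusters differed between the members, by Pearson's r of log levels over 11815 genes. For Ccl2 they were Ccl7 and Aebp1 (both 0.99) and Mmp10 (0.98), and for Ccl7 they were Ccl2, Mmp10 and Lox (all 0.99). Ccl6 was closest to Fcgr3, Trem2 and Lyz2, Ccl4 to Cd5l (0.99), C5ar1 (0.99) and Fcer1g (0.98), and Ccl3 to Pira2 (0.91), Gm15922 and Irf5 (both 0.89). Cxcl1 was closest to Arhgdib (0.96), Ccl8 and AC109138.2 (both 0.95), and Cxcl5 to Sppl2a (0.88), Itgbl1 (0.87) and Sh3kbp1 (0.86). Cxcl10 was closest to Atxn10 (0.91), Map4k3 and Trerf1 (both 0.90), and Cxcl12 to Ednra, Col6a2 (both 0.95) and Fbn1 (0.94). These profiles all come from 1 library.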

How the data were processed

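Cells were trapped on BD Rhapsody and amplified by TAS-Seq. The authors trimmed reads with cutadapt 2.10, mapped them with Bowtie2 2.3.4.1 to Ensembl release 100 cDNA and ncRNA (GRCm38.p6), assigned tags and removed doublets, and deposited raw read counts per gene symbol and cell (307121033 reads, 2 libraries: cDNA and tags). The tag library was not used here. Their processing notes also list Seurat 2.3.4.

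From these counts, reads were summed per tag or cluster and divided by total reads (CPM). All 17720 cells were kept, and 15628 of them had between 2000 and 8000 genes. Cell shares used cells thinned to 5000 reads, which left out 755 d8 cells, 604 of d16, 271 primed, 69 of d16+10p and 68 naive. Ratios have exact 95% counting intervals. Calls used log2(CPM + 1) among genes with 100 or more reads in the groups compared. No doublet caller was run.

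Clusters (18) came from Seurat 5.3.0 in R 4.3.3, with 2000 variable genes without chemokine ligands and receptors, 56 components, 50 neighbours and resolution 0.8. A name needed 3 markers among the 30 leading genes. Clusters 5, 7, 11 and 12 were called Pou5f1-high. edgeR 4.0.16 gave TMM factors only. Python 3.11.15, numpy 2.4.6, scipy 1.17.1, pandas 2.3.3 and matplotlib 3.10.9 were used.

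The members and lists were chosen with earlier results of these data known. Named genes were the 9 members, list genes reaching 20 CPM in a cluster, and the 3 genes most like each member; Il1b, Tnf, Ccr2, Cxcr3, Cxcl11 and Ifit1 are named below that level for their known role. On simulated Poisson counts for d8 against primed (19876 genes), 90% of genes changed 8-fold were called, 0% of those changed 2-fold, and 95.1% of intervals held the true ratio. The simulated counts had only the counting error that the intervals assume. That coverage therefore does not extend to the real reads, with their PCR copies and uneven cells. Alternatives were pseudocounts, TMM scaling, gene and read filters, other resolutions, other marker cut-offs and primed cells of cluster 12.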

Additional observations from a re-analysis of the deposited data

How the results depend on the processing

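Of 55 alternative values of the counts of members, 43 stayed within 1.5 times of the reported count, 7 were lower and 5 higher. The reported 1 member at least 4-fold higher at d8 than in primed became 0 with a pseudocount of 10 and 0 without the 1% of cells with most reads, 2 with TMM scaling, 5 with the primed cells of cluster 12 and, chosen after seeing the data, 4 with the Pou5f1-high level subtracted. The 2 members at least 4-fold lower at d16 became 0 with a pseudocount of 10, 1 (Ccl6) with cells of 2000 to 8000 genes, 1 (Ccl7) without the 1% of cells with most reads and 4 after subtraction. The 4 lower at d16+10p became 2 without those cells and 7 after subtraction. The 5 members at least 2-fold apart within a cluster became 1 (Cxcl1) with a pseudocount of 10. The cause of these changes was not tested. The assignment to Lox, Krt18 and Lyz2 stayed within 1.5 times under all 6 alternatives each, although with other markers of the same classes Cxcl1 moved to the macrophage marker Tyrobp. The d8 to primed ratio changed sign in 3 of 70 alternative values, all of Cxcl12, and the marker ratios in 15 of 162, none with a reported log2 over 0.23. The sizes were less stable: 28 of the 70 and 92 of the 162 values lay outside the counting interval of the reported ratio. So did 120 of 135 alternative shares of cells with a read, from other depths or a minimum of 2 reads. No paired analysis was possible because each population is 1 sample. Depth limits Ccl4 and Cxcl5, with at most 503 reads under any tag.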
